A study of Rattus norvegicus with 28 samples.

Results

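The cytosolic ribosomal protein genes were followed across 8 RNA-seq libraries of NRK-49F, an established line of rat kidney fibroblasts. Members were the gene symbols that start with Rpl, Rps or Rplp followed by a number, with the S6 kinase genes (Rps6k) left out, and 88 of the 30178 genes in the table met this. Of these, 72 carry the full name of a standard ribosomal protein (42 of the large subunit, 3 of its stalk and 27 of the small subunit), 8 are paralogs with names of their own, 7 carry a -like copy name, and 1, Rps19bp1, encodes a binding partner of a ribosomal protein. The standard names Rpl22, Rps14, Rps19 and Rps26 were not analysed here. The 4 groups held 2 libraries each, all of serum-starved cells (24 h in 0.2% serum). The first group had transforming growth factor β1 (TGF-β, 5 ng per µL as the labels print it) for 48 h in methionine-restricted medium with 30 µM methionine (MetR). The next had TGF-β for 48 h plus siRNA to knock down the homeobox transcription factor gene Hoxc8 (siHoxc8), the third had TGF-β for 48 h alone, and the last was the untreated control, for which the labels give no time. The control medium of the restriction experiment held 200 µM methionine, but the labels do not say which medium the TGF-β and control libraries had, and no RNA-seq library with a non-targeting siRNA was analysed here. The labels do not say whether replicates were separate cultures, so p-values measure the spread between these libraries, which may be technical.

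Ribosomes are built from ribosomal RNA and a fixed set of proteins, and the genes for these proteins are among the most strongly transcribed of a growing cell. Most vertebrate ribosomal protein mRNAs start with a C followed by an unbroken run of pyrimidines, the 5′ terminal oligopyrimidine (TOP) tract. Through this tract the kinase complex mTORC1 and the RNA-binding protein Larp1 govern their translation and stability when amino acids are scarce. A ribosomal protein made without its partners is normally degraded, so members of the family are usually made together.

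The start of a ribosomal protein gene is the stretch in which the TOP tract is read, and it is shown for members that span the responses described below, chosen after their values were seen. Each window holds 40 bases before and 20 bases from the start used in the RefSeq promoter table (rat build GRCr8), on the strand of the gene, and capitals mark the unbroken run of pyrimidines that opens with a C at that start. The first 5 are members that were lower with MetR.
Rps27 (chr2:177964587-177964646, minus strand): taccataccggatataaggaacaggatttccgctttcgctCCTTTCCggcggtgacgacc
Rpl31 (chr9:49143071-49143130, plus strand): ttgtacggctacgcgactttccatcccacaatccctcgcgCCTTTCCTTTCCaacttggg
Rpl10 (chrX:157205810-157205869, plus strand): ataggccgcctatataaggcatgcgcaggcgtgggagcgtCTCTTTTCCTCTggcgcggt
Rps18 (chr20:4933705-4933764, plus strand): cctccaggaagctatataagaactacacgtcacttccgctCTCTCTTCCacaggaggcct
Rplp0 (chr12:46718371-46718430, minus strand): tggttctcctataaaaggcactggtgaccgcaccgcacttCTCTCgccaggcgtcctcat
The next 4 are members that did not pass the test with MetR.
Rps15 (chr7:10068096-10068155, minus strand): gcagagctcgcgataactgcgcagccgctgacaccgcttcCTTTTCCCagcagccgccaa
Rps2 (chr10:14251808-14251867, plus strand): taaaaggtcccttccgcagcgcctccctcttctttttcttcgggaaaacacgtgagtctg
Rpl41 (chr7:1563478-1563537, minus strand): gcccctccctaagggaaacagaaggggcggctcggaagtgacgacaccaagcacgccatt
Rps6 (chr5:106420521-106420580, minus strand): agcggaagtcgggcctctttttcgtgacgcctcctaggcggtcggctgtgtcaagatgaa
A run of 12 pyrimidines opened Rpl31 and Rpl10, one of 9 opened Rps18, one of 8 opened Rps15, one of 7 opened Rps27 and one of 5 opened Rplp0. Rps2 has a long pyrimidine stretch that lies just before the listed start, so its run at that base was only 1 long. Rpl41 and Rps6 had none at the listed start, but their windows also hold pyrimidine stretches, farther before it. Whether transcripts open at those stretches was not tested. A promoter was in the table for 57 of the 72 full-name genes. Among them 21 (36.8%) opened with a C and at least 4 more pyrimidines, against 722 of all 27457 rat promoters (2.6%) and 2 of 62 promoters of mitochondrial ribosomal proteins (3.2%). A pyrimidine run of at least 7 bases lay within 10 bases of the start in 44 of 57 (77.2%), against 19.1% of all promoters. Searched on both strands of the 300-base promoter, the ETS-type core CCGGAAG was present in 33.3% of the 57 and in 9.2% of all promoters, the GC box GGGCGG in 59.6% and 34.9%, the TATA box TATAAA in 10.5% and 14.3%, and the YY1-type element AAGATGGCG in 5.3% and 1.9%; none of these motifs holds another. A listed start is 1 transcript's annotated 5′ end, so a tract that lies a few bases or farther away is missed.

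Reads recovered from the deposited values numbered 15118113 to 20146870 per library, a ratio of 1.333. Hoxc8 was 0.417 and 0.614 FPKM (fragments per length of gene and depth of library) in the MetR libraries and 0.463 and 0.0771 FPKM with siHoxc8. It was 4.32 and 5.01 FPKM with TGF-β and 1.12 and 1.34 FPKM in control. Both siHoxc8 libraries and both MetR libraries thus lay below all TGF-β and control libraries, and siHoxc8 and MetR overlapped. Of 9 fibroblast markers in the table, 7 were at 1 FPKM or more in every library, while all 4 endothelial and 4 of 5 leukocyte markers stayed under 1 FPKM in every library. Epithelial markers other than Krt8 were low or absent, and the summed epithelial level was 233 to 255 FPKM with MetR, 646 to 686 FPKM with siHoxc8, 194 to 225 FPKM with TGF-β and 236 to 239 FPKM in control. Summed fibroblast markers were 7650 to 11920 FPKM with MetR, 12570 to 13060 FPKM with siHoxc8, 14160 to 14410 FPKM with TGF-β and 7897 to 7925 FPKM in control. Whether these marker shifts take part in the results was not tested.

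As a family, the 72 full-name genes made up the smallest share of expression in the MetR libraries and the largest in control. Their share of the summed FPKM was 4.48% and 4.81% with MetR, 9.72% and 9.42% with siHoxc8, 8.22% and 9.46% with TGF-β, and 10.8% and 11.2% in control. The MetR libraries lay below all others and the control libraries above all others, while siHoxc8 and TGF-β libraries overlapped. Group means were 4.64 ± 0.239% with MetR, 9.57 ± 0.209% with siHoxc8, 8.84 ± 0.881% with TGF-β and 11.0 ± 0.256% in control (SD, n = 2 each). Counted as reads, which favours long genes, the share was 1.43% (95% Wilson interval 1.42 to 1.43%) and 1.63% (1.63 to 1.64%) with MetR, against 2.89% (2.88 to 2.89%) and 3.59% (3.58 to 3.60%) with TGF-β. Such intervals cover counting error only. With 2 libraries against 2, an exact permutation test cannot reach 0.05, so these shares carry no test. Both subunits shared the order of groups, but the ratio of large subunit to small subunit summed FPKM was 1.73 and 1.70 with MetR, 1.62 and 1.61 with siHoxc8, 1.51 and 1.47 with TGF-β, and 1.56 and 1.52 in control. That ratio was therefore highest in both MetR libraries, but this rested on 1 large subunit gene, Rpl41. Without Rpl41 the family share was 4.02% and 4.35% with MetR, beside small subunit shares of 1.64% and 1.78%. With siHoxc8 it was 9.23% and 8.94%, beside 3.70% and 3.61%, so the ratio was then no longer highest with MetR. In bulk RNA a smaller share cannot be told apart from fewer cells that make the transcripts, and a share of FPKM says nothing of RNA per cell.

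**Figure D1:**
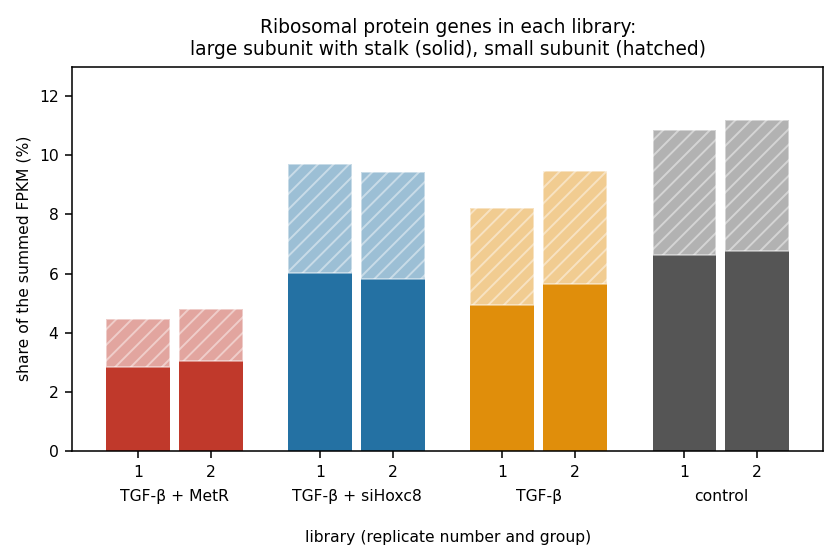
Share of the summed FPKM (%) taken by the 72 full-name ribosomal protein genes in each of the 8 libraries, as stacked bars: large subunit with stalk solid, small subunit hatched. The MetR bars reach 4.48% and 4.81%, those of the other 6 libraries 8.22% to 11.2%.

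With methionine restriction on top of TGF-β, nearly the whole family was lower. Of the 70 full-name genes tested, 61 were lower with MetR than with TGF-β alone and 0 were higher, by limma on log2(FPKM + 1) at an adjusted p under 0.05 over all 12315 genes tested. In the same comparison 19% of all tested genes were lower and 34.8% higher. The median log2 change of the 70 genes was -1.27, while that of all tested genes was 0.18, and 51 of the 70 were at least 2-fold lower on this scale. Both MetR libraries lay below both TGF-β libraries for 63 of the 70, against 26.7% of all tested genes. Large subunit genes with the stalk (38 of 43 lower, median -1.23) and small subunit genes (23 of 27 lower, median -1.31) had similar counts and medians, and no test over genes was made between them. Of the 57 members that averaged at least 100 FPKM, 54 were lower. Both libraries of each group showed the shift, although MetR replicate 2 stood above replicate 1 for 62 of 70 genes (median log2 difference 0.22, against 0.07 over all tested genes) and TGF-β replicate 2 above replicate 1 for 66 of 70 (0.32, against 0.03).

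**Figure D2:**
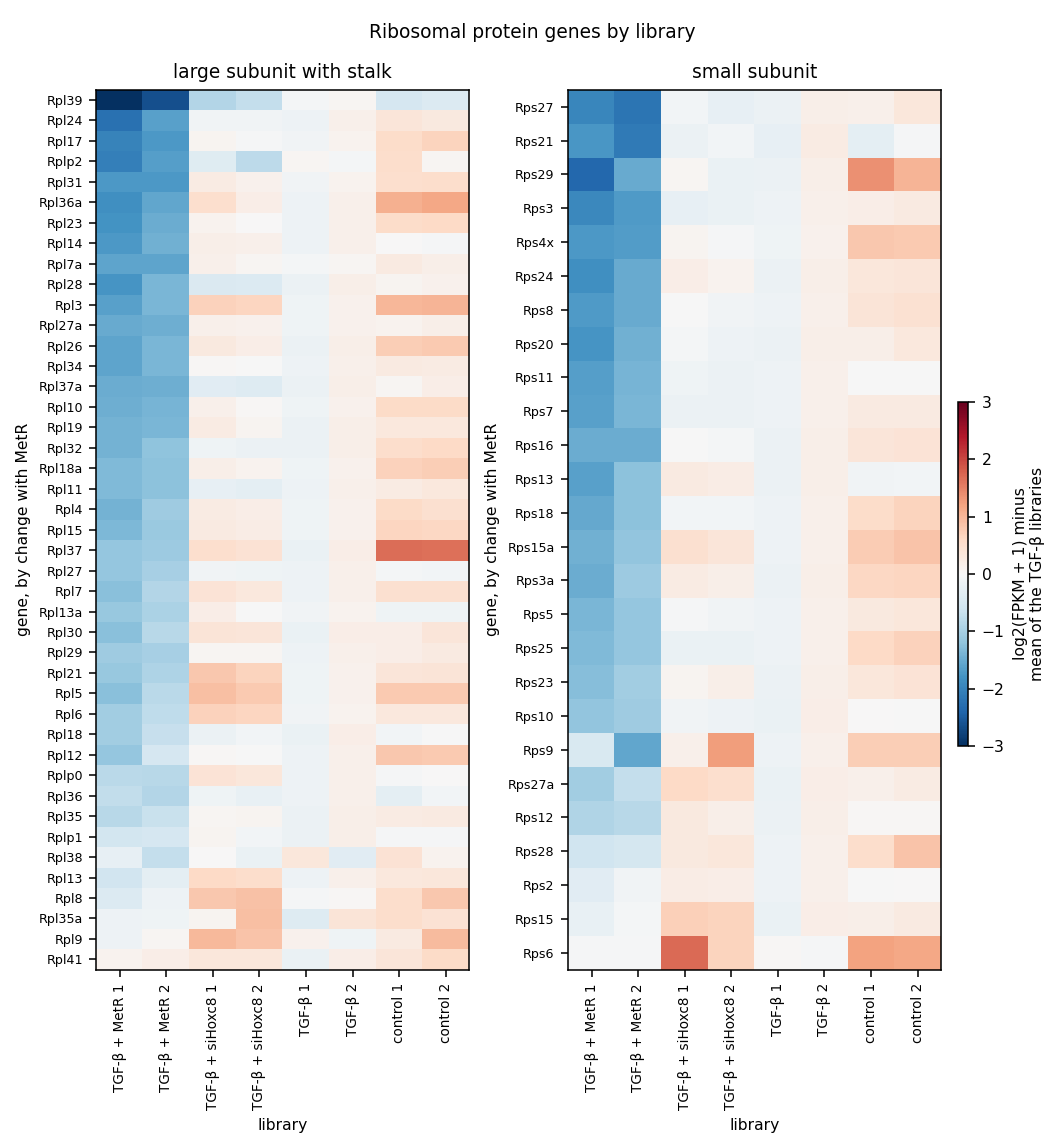
The 70 tested full-name genes except 1 that is not shown (rows, ordered by the change with MetR) in each of 8 libraries (columns), as log2(FPKM + 1) minus the mean of the TGF-β libraries. Blue fills both MetR columns in nearly all rows of both subunits, and the bottom rows (Rpl41, Rpl9, Rpl35a, Rps6, Rps15, Rps2) are pale there.

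The largest fall on the log2 scale with MetR was that of Rpl39, a small protein that lines the exit tunnel of the ribosome. Rpl39 had 1.07 and 1.76 FPKM in MetR libraries, 8.36 and 9.51 FPKM with siHoxc8, 15.4 and 16.9 FPKM with TGF-β and 11.2 and 12.0 FPKM in control (log2 change -2.84, SE 0.16, adjusted p 5.54e-05). Its groups did not overlap, but its MetR values rest on 7 and 10 reads. Rpl24, which forms a bridge between the subunits, had 155 and 237 FPKM in MetR libraries and 661 and 823 FPKM with TGF-β (log2 change -1.94, SE 0.20, adjusted p 0.000289). Rpl31, which sits at the tunnel exit and opens with the 12-base pyrimidine run shown above, had 78.7 and 78.7 FPKM in MetR libraries and 243 and 285 FPKM with TGF-β, 3.36-fold lower by the means (log2 change -1.73, SE 0.11, adjusted p 6.55e-05). For both genes the MetR libraries lay far below the TGF-β pair.

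Other large subunit genes that fell include Rpl3, Rpl10, Rpl5 and Rpl11. Rpl3, whose protein reaches into the peptidyl transferase centre, had 71.4 and 84.9 FPKM in MetR libraries and 203 and 241 FPKM with TGF-β (log2 change -1.50, SE 0.12, adjusted p 0.000129). Rpl10, which joins the large subunit late in its assembly, had 315 and 328 FPKM in MetR libraries and 798 and 948 FPKM with TGF-β (log2 change -1.43, SE 0.12, adjusted p 0.000131). Rpl5 and Rpl11 carry the 5S RNA into the large subunit and can bind Mdm2, the ubiquitin ligase of p53, when assembly fails. Rpl5 had 219 and 299.9 FPKM in MetR libraries, 976 and 903 FPKM with siHoxc8, 475 and 576 FPKM with TGF-β and 900.4 and 905 FPKM in control (log2 change -1.03, SE 0.17, adjusted p 0.00178 for MetR against TGF-β). Rpl11 had 38.8 and 41.0 FPKM in MetR libraries and 88.9 and 108 FPKM with TGF-β (log2 change -1.28, SE 0.11, adjusted p 0.000176). Both MetR libraries lay below both TGF-β libraries for each of these 4 genes. Genes often used as references in PCR were among those that fell: Rpl32 by a log2 change of -1.31, Rpl19 by -1.40, Rpl13a by -1.05 and, in the small subunit, Rps18 by -1.37 (adjusted p 0.00035, 0.000237, 0.000534 and 0.000291).

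The genes of the stalk proteins Rplp0, Rplp1 and Rplp2, which recruit elongation factors, were lower to unequal degrees, and the call for Rplp1 was not stable. Rplp0, the most abundant of them, had 1226 and 1214 FPKM in MetR libraries, 2885 and 2724 FPKM with siHoxc8, 1955 and 2378 FPKM with TGF-β and 2113 and 2169 FPKM in control (log2 change -0.82, SE 0.13, adjusted p 0.00161 for MetR against TGF-β). Rplp1 had 976 and 1008 FPKM in MetR libraries and 1258 and 1617 FPKM with TGF-β (log2 change -0.52, SE 0.14, adjusted p 0.0166). That call was lost with no filter and with library weights (adjusted p up to 0.0832), and the change was 0.22 after quantile normalization. Both were less reduced than the median member. Rplp2 is listed at only 0.142 and 0.493 FPKM in MetR libraries and 3.90 and 3.50 FPKM with TGF-β (log2 change -1.85, SE 0.23, adjusted p 0.00059), which for the MetR libraries is 1 and 3 reads.

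In the small subunit, Rps27, a zinc finger protein, fell the most. Rps27 had 185 and 156 FPKM in MetR libraries, 683 and 603 FPKM with siHoxc8, 641 and 810.5 FPKM with TGF-β and 804 and 913 FPKM in control, 4.25-fold lower with MetR than with TGF-β by the means (log2 change -2.08, SE 0.15, adjusted p 9.8e-05). The MetR libraries alone stood apart, and the siHoxc8 and TGF-β values overlapped. Rps21 had 295 and 229 FPKM in MetR libraries and 844 and 1182 FPKM with TGF-β (log2 change -1.94, SE 0.19, adjusted p 0.000266). Rps3, which shapes the channel where mRNA enters, had 229 and 266 FPKM in MetR libraries and 790.4 and 962 FPKM with TGF-β (log2 change -1.82, SE 0.13, adjusted p 9.05e-05). Rps29, another zinc-binding protein, is listed low, at 0.818 and 2.27 FPKM in MetR libraries and 7.33 and 9.46 FPKM with TGF-β (log2 change -1.94, SE 0.28, adjusted p 0.00112), on 5 and 12 reads in the MetR libraries. Rps24 and Rps10, which are mutated in the human anemia of Diamond and Blackfan, changed by -1.68 and -1.12 on the log2 scale (adjusted p 0.000191 and 0.000571). Rps25, which some viral mRNAs need to start translation, changed by -1.25 (adjusted p 0.000286).

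Of the 9 full-name genes that did not pass the test with MetR, 3 were abundant. Rpl41, which encodes the shortest ribosomal protein, had 1987 and 2132 FPKM in MetR libraries, 2356 and 2349 FPKM with siHoxc8, 1614 and 2112 FPKM with TGF-β and 2386 and 2759 FPKM in control (log2 change 0.16, SE 0.16, adjusted p 0.431 for MetR against TGF-β). Rps15, which lies near the decoding centre, had 698 and 784 FPKM in MetR libraries and 706 and 932 FPKM with TGF-β (log2 change -0.13, SE 0.15, adjusted p 0.48). Rps2, which lies at the mRNA entry, had 1251 and 1479 FPKM in MetR libraries and 1424 and 1768 FPKM with TGF-β (log2 change -0.22, SE 0.14, adjusted p 0.228). The MetR and TGF-β libraries overlapped for all 3. The results for these genes depended on the scaling. After quantile normalization all 3 were called higher, with changes of 0.59 for Rpl41, 0.36 for Rps15 and 0.37 for Rps2 (adjusted p 0.00258, 0.00669 and 0.00546). Rps2 was called lower in 3 of 18 alternatives, both median ratio rescalings and the fit without TGF-β replicate 1, with changes down to -0.45. Rps15 was called lower in 1, the fit without TGF-β replicate 1. The sign for Rpl41 changed in 3 of 18 alternatives. The difference between MetR and siHoxc8 was 0.19 for Rpl41 (adjusted p 0.332, log2 change of siHoxc8 over MetR), 0.82 for Rps15 (0.00278) and 0.44 for Rps2 (0.035).

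The other 6 uncalled members were listed at under 30 FPKM. Rps6, the main substrate of the S6 kinases, was listed at 1.40 and 1.38 FPKM in MetR libraries, 6.93 and 2.88 FPKM with siHoxc8, 1.49 and 1.39 FPKM with TGF-β and 4.65 and 4.47 FPKM in control (log2 change -0.03, SE 0.29, adjusted p 0.938 for MetR against TGF-β). Rpl38, whose loss in mice alters the translation of Hox mRNAs, was listed at 3.72 and 2.42 FPKM in MetR libraries and 6.08 and 3.44 FPKM with TGF-β (log2 change -0.48, SE 0.26, adjusted p 0.155). Log2 changes of the remaining uncalled genes were -1.01 for Rps9, -0.28 for Rpl8, -0.14 for Rpl35a and -0.04 for Rpl9, with adjusted p of 0.0781, 0.11, 0.726 and 0.903. Rps9 and Rpl8 were called lower in 5 and 4 of 18 alternatives, and Rpl38 in 2 of 17. In all, 11 tested full-name genes averaged under 30 FPKM (also Rpl13a, Rplp2, Rpl7a, Rpl39 and Rps29), and Rpl10a and Rpl23a were listed at 0 in every library, although every cell needs these proteins. Ribosomal protein genes have many near-identical processed copies among which reads can be split or dropped, so the listed level and change of these genes are uncertain. Of these 11 genes 5 were lower with MetR, against 19% of all tested genes, with a median change of -1.01.

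With Hoxc8 knocked down, the median of the family lay near its level under TGF-β alone, and the share of its genes that were higher was below that of all tested genes. Against TGF-β alone, 13 of 70 full-name genes were higher and 1 was lower, while 28.1% of all tested genes were higher and 15.7% lower. The median log2 change was 0.10 for the 70 genes and 0.13 for all tested genes. That median is not stable in sign: it was -0.06 after rescaling the libraries by median ratios, which brings the median of all tested genes to -0.01, and -0.01 without TGF-β replicate 1. Without it 7 genes were higher and 5 lower; without siHoxc8 replicate 1 the counts were 6 and 0, and without siHoxc8 replicate 2 they were 7 and 1. Both siHoxc8 libraries lay above both TGF-β libraries for 26 of 70 genes and below them for 8, against 47.6% and 29.2% of all tested genes. Of the large subunit with its stalk, 9 of 43 were higher, and of the small subunit 4 of 27, both smaller shares than over all tested genes, and no test was made between subunits. The summed epithelial marker level given above, nearly all Krt8, was also highest in the siHoxc8 libraries; its part in these differences was not tested.

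**Figure D3:**
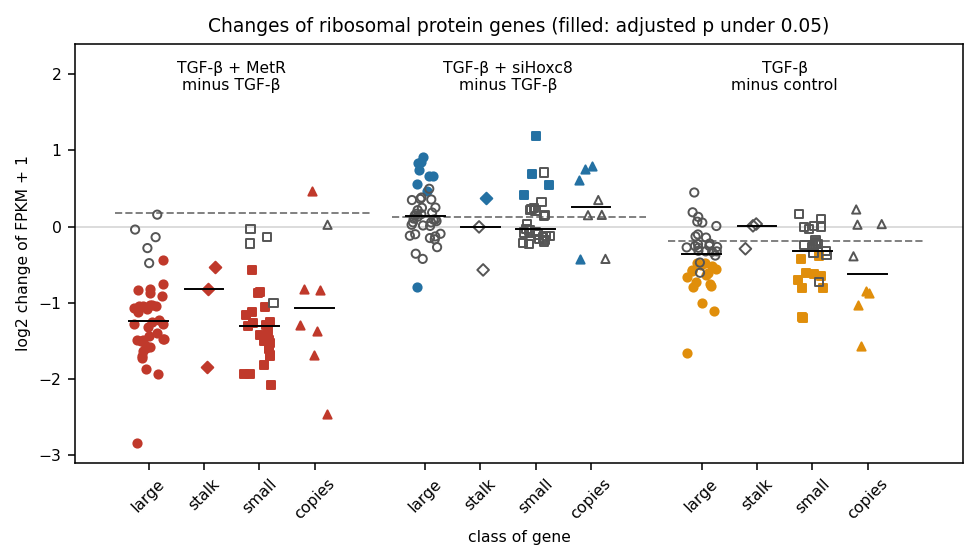
Log2 change of FPKM + 1 for each tested gene by class (large subunit, stalk, small subunit, paralogs and copies) in 3 comparisons; filled symbols passed an adjusted p of 0.05, black bars are class medians and dashed lines the median of all 12315 genes. With MetR the bars lie near -1.2 or lower for large and small subunits, well under the dashed line at 0.18, while with siHoxc8 the large subunit bar (0.14) lies at the dashed line of 0.13 and the small subunit bar (-0.04) just under 0.

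Among the genes higher with siHoxc8, Rpl5 had 976 and 903 FPKM with siHoxc8 and 475 and 576 FPKM with TGF-β (log2 change 0.84, SE 0.17, adjusted p 0.00554), and its groups did not overlap. Rpl3 had 356 and 349 FPKM with siHoxc8, 203 and 241 FPKM with TGF-β and 446 and 447 FPKM in control (log2 change 0.67, SE 0.12, adjusted p 0.00376 for siHoxc8 against TGF-β). Rpl21 had 423 and 385 FPKM with siHoxc8 and 218 and 265 FPKM with TGF-β (log2 change 0.75, SE 0.13, adjusted p 0.00311). Rps15 had 1323 and 1288 FPKM with siHoxc8 and 706 and 932 FPKM with TGF-β (log2 change 0.69, SE 0.15, adjusted p 0.00815), so it was higher with the knockdown, while its MetR libraries overlapped those of TGF-β alone. The largest rise was listed for Rps6 (log2 change 1.18, SE 0.29, adjusted p 0.0141), whose siHoxc8 libraries differed more than 2-fold between themselves, followed by Rpl9 (log2 change 0.91, SE 0.24, adjusted p 0.0173) and Rpl8 (log2 change 0.84, SE 0.13, adjusted p 0.0021), all at low listed levels. The Rps6 call was lost without either TGF-β library (adjusted p up to 0.0707) and that of Rpl9 without TGF-β replicate 2 or either siHoxc8 library (up to 0.0979). Rplp0 was higher (log2 change 0.38, SE 0.13, adjusted p 0.048), a call that 10 of 18 alternatives did not keep. The gene that fell was Rpl39 (log2 change -0.79, SE 0.16, adjusted p 0.00591), at 8.36 and 9.51 FPKM with siHoxc8 and 15.4 and 16.9 FPKM with TGF-β, on few reads; its adjusted p reached 0.05 without siHoxc8 replicate 1. The other small subunit genes that were higher were Rps15a and the ubiquitin fusion gene Rps27a, with log2 changes of 0.41 and 0.55 (adjusted p 0.0389 and 0.0304), calls that 8 of 18 alternatives did not keep (up to 0.198 and 0.148).

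With TGF-β alone, a part of the family was lower than in control. Of the 70 genes, 27 were lower and 0 higher with TGF-β, while 28.6% of all tested genes were lower and 10.3% higher. The median log2 change was -0.33 for the 70 genes and -0.19 for all tested genes, so the family stood 0.13 below that shift. That offset depended on 1 library. Without TGF-β replicate 1 the medians were -0.17 for the 70 genes and -0.18 for all tested genes. Without TGF-β replicate 2 they were -0.48 and -0.20. After rescaling by median ratios, which brings the median of all genes to 0.01, 16 of the 70 were lower and 1 was higher, with a median of -0.10. Without control replicate 1 the count of lower genes was 12, without control replicate 2 it was 9, without TGF-β replicate 1 it was 14 and without TGF-β replicate 2 it was 37. Both TGF-β libraries lay below both control libraries for 45 of 70 genes and above them for 2, against 52.6% and 23.1% of all tested genes. Large subunit genes with the stalk (17 of 43 lower) and small subunit genes (10 of 27 lower) had similar counts.

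Rpl37, a zinc-binding protein of the large subunit, changed the most with TGF-β. Rpl37 had 28.8 and 38.5 FPKM with TGF-β and 108 and 106 FPKM in control (log2 change -1.66, SE 0.13, adjusted p 0.000179), and it was lower again with MetR, at 14.4 and 15.0 FPKM against the same TGF-β libraries (log2 change -1.13, SE 0.13, adjusted p 0.000505). Rpl36a, which lies near the exit site for transfer RNA, had 175 and 219 FPKM with TGF-β and 408 and 441 FPKM in control (log2 change -1.11, SE 0.16, adjusted p 0.00177). Rpl3 was lower as well (log2 change -1.01, SE 0.12, adjusted p 0.000837). For these 3 genes both TGF-β libraries lay below both control libraries. Rps29 (log2 change -1.19, SE 0.28, adjusted p 0.0135) and Rps6 (log2 change -1.19, SE 0.29, adjusted p 0.0163) were listed lower on few reads, and the Rps6 call was lost when any one TGF-β or control library was left out and after quantile normalization (adjusted p up to 0.0822), while the Rps29 call was lost without control replicate 1 or TGF-β replicate 1 (up to 0.0909). The stalk genes Rplp0 and Rplp1 changed by 0.01 and 0.03 (adjusted p 0.958 and 0.865). Rpl5 had a log2 change of -0.79 (adjusted p 0.00901), Rpl32 of -0.56 (0.0183), Rps18 of -0.60 (0.0135), and Rpl41 of -0.47 (0.0476). Of 18 alternatives, 2 did not keep the call for Rpl5 (each without 1 control library, adjusted p up to 0.0576), 6 that for Rpl32 (up to 0.109), 5 that for Rps18 (up to 0.0928) and 9 that for Rpl41 (up to 0.262). Both median ratio rescalings and leaving out either control library were among them for the last 3.

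Against untreated control, the combination of TGF-β and MetR gave 66 of 70 full-name genes lower and 0 higher, with 29.3% of all tested genes lower and 28% higher, and a median log2 change of -1.65, against -0.01 over all tested genes. Both MetR libraries lay below both control libraries for all 70, against 40.3% of all tested genes. The 4 genes that did not pass were Rpl35a, Rps15, Rpl41 and Rps2, with log2 changes of -0.61, -0.35, -0.32 and -0.22. TGF-β with siHoxc8 gave 25 lower and 3 higher than control, with 27% and 21.7% of all tested genes, and a median of -0.27. Those 3 were Rps15, Rplp0 and Rpl21. Both siHoxc8 libraries lay below both control libraries for 48 of 70 genes and above them for 12, against 44.9% and 39% of all tested genes. Without either control library or either siHoxc8 library the lower count fell to 7 to 11 and the higher count to 0. Both of these comparisons share the control libraries.

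The difference between both added treatments was tested directly, since the shared TGF-β libraries cancel in it. With siHoxc8, 67 of 70 full-name genes were higher than with MetR and 0 were lower, while 24.9% of all tested genes were higher and 29.3% lower. The median log2 change was 1.42, against -0.06 over all tested genes, and both siHoxc8 libraries lay above both MetR libraries for all 70, against 35.8% of all tested genes. Rpl3 (log2 change 2.17, SE 0.12, adjusted p 1.91e-05) and Rps27 (log2 change 1.91, SE 0.15, adjusted p 7.88e-05) are examples from each subunit. The 3 genes that did not pass were Rpl41, Rpl38 and Rpl35a, with log2 changes of 0.19, 0.39 and 0.64.

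The paralogs did not all follow their parent genes. Rps27l, a paralog of Rps27 that p53 induces in human cells, had 121 and 193 FPKM in MetR libraries, 194 and 189.5 FPKM with siHoxc8, 129.5 and 174 FPKM with TGF-β and 144 and 149.7 FPKM in control (log2 change 0.02, SE 0.22, adjusted p 0.935 for MetR against TGF-β). Its MetR and TGF-β libraries overlapped, so that with MetR it was listed at about the level of Rps27, which was 185 and 156 FPKM there. Rpl7l1, a paralog of Rpl7, had 109 and 154 FPKM in MetR libraries and 92.9 and 94.4 FPKM with TGF-β, while Rpl7 had 46.5 and 60.5 FPKM in MetR libraries and 100.2 and 125 FPKM with TGF-β. Rpl7 was lower with MetR (log2 change -1.06, SE 0.15, adjusted p 0.00105) and Rpl7l1 was higher (log2 change 0.47, SE 0.16, adjusted p 0.0382), but the Rpl7l1 call was not kept in 11 of 18 alternatives (adjusted p 0.00088 to 0.196). The changes of parent and paralog were not tested against each other.

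**Figure D4:**
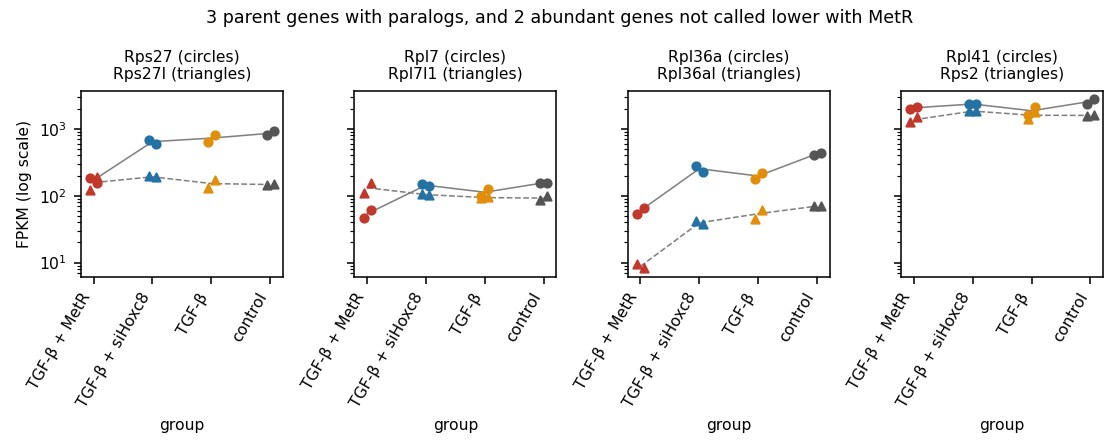
FPKM on a log axis in each of the 8 libraries (points) with group means joined by lines, for 3 parent genes with a paralog and for Rpl41 and Rps2, in the order MetR, siHoxc8, TGF-β and control. Rps27 and Rpl7 drop at the left while Rps27l and Rpl7l1 do not, both Rpl36a and Rpl36al drop, and Rpl41 and Rps2 stay between 1251 and 2759 FPKM.

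Rpl36al, which can stand in for Rpl36a in the ribosome, fell with its parent: it had 9.42 and 8.19 FPKM in MetR libraries and 45.5 and 61.9 FPKM with TGF-β (log2 change -2.47, SE 0.15, adjusted p 6.55e-05), and Rpl36a had 53.9 and 66.0 FPKM in MetR libraries and 175 and 219 FPKM with TGF-β (log2 change -1.70, SE 0.16, adjusted p 0.000219). Rpl22l1, a paralog of Rpl22, had 33.5 and 47.8 FPKM in MetR libraries, 128 and 122 FPKM with siHoxc8, 62.9 and 81.8 FPKM with TGF-β and 225 and 204 FPKM in control. It was lower with MetR (log2 change -0.83, SE 0.18, adjusted p 0.00722), a call lost without TGF-β replicate 2 (adjusted p 0.052), and lower with TGF-β than in control (log2 change -1.57, SE 0.18, adjusted p 0.00076). Rpl10l and Rpl39l were listed at 0 in every library, and Rpl3l, which is made in muscle, and Rps4y2 were under the filter. Of the 7 -like copies, 4 were tested and all 4 were lower with MetR, against 19% of all tested genes. Log2 changes were -1.68 for Rpl35al1, -1.38 for Rps15al4, -1.29 for Rps18l1 and -0.84 for Rps19l2 (adjusted p 7.03e-05, 0.00232, 0.000416 and 0.000895). RefSeq gives Rps19l2 and Rpl35al1 both as older names of Rps19 and Rpl35a and as copies, so which gene these rows count is uncertain. Rps19l2 had 42.1 and 42.3 FPKM in MetR libraries, 119.6 and 114 FPKM with siHoxc8, 68.4 and 84.8 FPKM with TGF-β and 135 and 141 FPKM in control. Rps19bp1, the binding partner that only shares the name pattern, was higher with MetR, at 71.6 and 100.1 FPKM against 35.1 and 44.9 FPKM with TGF-β (log2 change 1.07, SE 0.17, adjusted p 0.00172).

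Rpsa and Rack1, ribosomal proteins whose names fall outside the pattern, were also lower with MetR. Rpsa, which is also known as a laminin receptor, had 657 and 652 FPKM in MetR libraries and 919.7 and 1167 FPKM with TGF-β (log2 change -0.66, SE 0.13, adjusted p 0.00436), a call lost after quantile normalization (adjusted p 0.127). Rack1, a scaffold for signalling proteins on the small subunit, changed by -1.15 (adjusted p 0.000555). Fau was under the filter. Translation factors and other genes known for TOP mRNAs were mixed: 9 of 15 tested were lower with MetR and 2 were higher, against 19% and 34.8% of all tested genes. Eef1g and Eef1b2, subunits of the elongation factor 1 exchange complex, changed by -1.68 and -1.40, Tpt1 by -1.67 and Eef1a1, which brings transfer RNAs to the ribosome, by -0.93 (adjusted p 0.000135, 0.000522, 0.000105 and 0.000897); the Eef1a1 call was lost with no filter (adjusted p 0.0558). The 2 that were higher were the splicing protein gene Hnrnpa1 (0.60, adjusted p 0.00159) and the initiation factor gene Eif4b (0.30, 0.0413), a call that 11 of 18 alternatives did not keep (up to 0.514).

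Among genes that govern or assemble the ribosome, calls with MetR were mostly higher, which was also the more common direction over all tested genes (34.8% higher and 19% lower than with TGF-β alone). Of 13 regulators of TOP mRNAs and mTORC1, 9 were higher, 0 lower and 4 not called. Myc, a transcription factor that raises ribosome production, had 94.4 and 162 FPKM in MetR libraries and 35.6 and 36.6 FPKM with TGF-β (log2 change 1.75, SE 0.22, adjusted p 0.000616). Sesn2, which holds mTORC1 back when leucine is short, had 83.9 and 104 FPKM in MetR libraries and 30.4 and 28.9 FPKM with TGF-β (log2 change 1.62, SE 0.12, adjusted p 9.8e-05). The mTOR inhibitor Deptor, the translation repressor Eif4ebp1 and Larp1 had log2 changes of 1.41, 0.83 and 0.64 (adjusted p 0.00635, 0.00274 and 0.0104), and the Larp1 call was lost after median ratio rescaling (adjusted p up to 0.0572) and the Deptor call without TGF-β replicate 2 (0.0511). Of 10 genes for chaperones, assembly and surveillance, 7 were higher, 0 lower and 3 not called. Nob1, the nuclease that finishes the small subunit RNA, had 83.3 and 119.7 FPKM in MetR libraries and 32.3 and 36.8 FPKM with TGF-β (log2 change 1.51, SE 0.17, adjusted p 0.00039). Mdm2 changed by 1.46 (adjusted p 0.000174), and Heatr3, which in human cells helps Rpl5 and Rpl11 into the nucleus, by 1.05 (0.00171). Of the 77 mitochondrial ribosomal protein genes tested, 34 were higher (44.2%) and 3 lower (3.9%) with MetR, with a median of 0.37, against 0.18 over all tested genes. With siHoxc8, 9 of the 15 TOP translation factors were higher and 0 lower than with TGF-β alone, where 28.1% of all tested genes were higher and 15.7% lower. Of the 77 mitochondrial genes 25 were higher (32.5%), a share near that of all tested genes, and 3 lower.

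**Figure D5:**
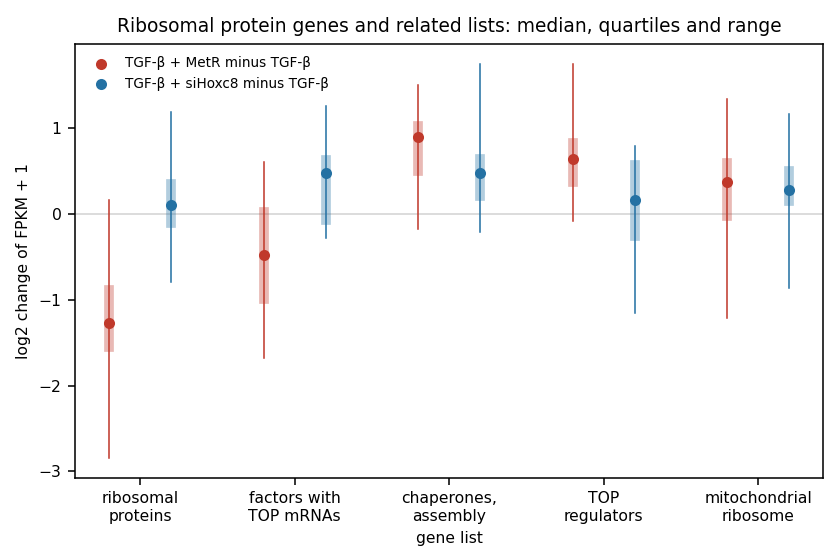
Median (point), quartiles (thick bar) and range (thin line) of the log2 change of FPKM + 1 over the tested genes of 5 lists, for MetR added to TGF-β and for siHoxc8 added to TGF-β, each against TGF-β alone. With MetR the cytosolic ribosomal protein genes (median -1.27) lie below the other lists and the mitochondrial ones (median 0.37) above 0.

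Members of every length class and of both kinds of start were lower with MetR. By length the 70 genes had median changes with MetR of -1.08 (under 500 bases), -1.27 (500 to 1000), -1.48 (1000 to 2000) and -1.28 (2000 to 4000), while other genes in the same ranges had medians of 0.09, -0.01, 0.12 and 0.23. Other genes averaging at least 100 FPKM had medians of -0.14, -0.19, -0.12 and -0.09 in these ranges. Across all 70 genes, Spearman's rho between mean level and log2 change with MetR was 0.18, and with gene length it was -0.08. Across the 57 members at 100 FPKM or more it was 0.44 with level and -0.18 with length. The mean level was taken over all 8 libraries, including those compared, so level and change are not independent. These are descriptions over genes that share libraries. The 20 tested genes with a C and at least 4 more pyrimidines at the listed start had a median change with MetR of -1.42 (17 lower). The 36 with other starts had one of -1.14 (31 lower), where 19% of all tested genes were lower. Many other starts also have a pyrimidine run close by. Over all 57 promoters, 44 held a run of at least 7 bases within 10 bases of the start. That count includes the 21 promoters that open with a C and at least 4 more pyrimidines. Rps2 and Rpl7a, with runs of 20 and 24 there, are among the other starts. These medians therefore do not compare genes with and without a tract. Rps15 has the 8-base run shown above and did not pass the test, and Rpl31 has a 12-base run and fell.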

How the data were processed

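The authors deposited 1 table of FPKM values for the 8 RNA-seq libraries, per the labels, and the 20 chromatin samples of the series were not used here. Per the submitters' processing notes, Trim Galore, Bowtie2 2.3.5.1, deepTools, featureCounts and the rat build rn6 were used, with no roles given; the sources used here give neither annotation nor strand setting. In each library, FPKM values were whole multiples of the value of 1 read for 100.0% of the 19435 genes above 0 (tolerance 0.02 reads). This gave reads and gene lengths. For genes above 0 in only 1 library the match holds by construction. Of 9577 genes whose length was checked, 99.8% had one within 0.05 of a whole number. Groups were tested with limma 3.58.1 (R 4.3.3) on log2(FPKM + 1), which understates changes of low genes, over all 8 libraries, with 1 coefficient per group and a variance trend (4 residual degrees of freedom, 3.47 prior), for the 12315 genes that reached 1 FPKM in 2 or more libraries. P-values are two-sided and Benjamini-Hochberg adjusted over all tested genes, with a threshold of 0.05. The fit was tested on simulated data. Of the 88 members, 72 full-name genes formed the family counts. Values of 1 member and 1 related gene are not reported here. Named members were those of fixed roles, up to 5 largest rises and falls per main comparison, and uncalled members where 10 or fewer. Rpl31, Rps3, Rps15a, Rps27a and the members shown by sequence were chosen after their values were seen. Genes named from the lists of translation factors, regulators and assembly genes followed none of these rules. Those given there with a MetR change had all passed the test. Members and lists were chosen with earlier results of these data known. Alternatives were another pseudocount, other filters and scalings, limma-voom on the recovered reads, library weights, removal of a length trend, a replicate block, counting copies, and leaving out each library.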

Additional observations from a re-analysis of the deposited data

How the results depend on the processing

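The count of members lower with MetR than with TGF-β was 58 to 67 under all alternatives, of up to 78 genes where copies were counted. Against TGF-β, its median moved to -1.4926 and -1.4985 with median ratio rescaling over all genes and over other genes, and to -1.09 with quantile normalization, where 3 genes were higher; counting copies added 1 higher gene. Against control, MetR had 1 higher gene with quantile normalization (median -1.46) and 1 with copies. For siHoxc8 over MetR the median was 1.19 with quantile normalization and 1.2541 to 1.4951 with libraries left out.

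For TGF-β against control, both rescalings gave 16 and 15 lower genes, 1 and 1 higher, and medians of -0.10 and -0.10; quantile normalization gave 2 higher genes, library weights 1 and the replicate block 1. Leaving out libraries gave 9 to 37 lower and 0 to 1 higher.

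For siHoxc8 against TGF-β, both rescalings gave 7 and 7 lower genes, 8 and 8 higher, and medians of -0.0641 and -0.0626, the opposite sign. Lower genes numbered 7 with quantile normalization, 4 with library weights, 2 with the replicate block, 3 after removal of a length trend and 2 with copies. Leaving out libraries gave 0 to 5 lower, 6 to 15 higher and medians of -0.0135 to 0.23. For siHoxc8 against control, no filter gave 14 lower and 0 higher; higher genes numbered 5 and 5 with the rescalings, 6 with quantile normalization and 10 with library weights, and leaving out libraries gave 7 to 32 lower and 0 to 5 higher.

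Among named genes with MetR, quantile normalization turned the sign for Rplp1 (0.22), Rps15 (0.36), Rps2 (0.37) and Eef2 (0.0506). Changes of sign of genes not called in either fit are not counted. The cause of these shifts was not tested. The main fit did not pair libraries by replicate number. The correlation of replicate differences was -0.02 to 0.02 between groups, except 0.20 for TGF-β and MetR. In these 2 groups replicate 2 stood above replicate 1 for 66 and 62 of 70 members. With a replicate block, 62 members were lower with MetR than with TGF-β. Rpl39, Rps29, Rplp2 and Rps6 are limited by depth. These and the other members listed under 30 FPKM may have lost reads to copies, which was not tested. With 1 library of a group left out, the lone library is assumed to vary like the other groups.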

Other observations

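The S6 kinase genes Rps6kb1 and Rps6kb2, whose products act on ribosomal protein Rps6, differed in pattern from the ribosomal protein genes. Rps6kb1 had 13.6 and 17.9 FPKM with MetR, 6.46 and 7.38 FPKM with siHoxc8, 16.4 and 16.8 FPKM with TGF-β and 19.4 and 18.9 FPKM in control. It was lower with siHoxc8 than with TGF-β (log2 change -1.16, limma adjusted p 0.000649), and the groups did not overlap. Rps6kb2 had 57.7 and 63.2 FPKM with MetR, 24.4 and 28.2 FPKM with siHoxc8, 35.7 and 38.2 FPKM with TGF-β and 36.3 and 35.9 FPKM in control. It was higher with MetR (log2 change 0.69, adjusted p 0.00133) and lower with siHoxc8 (-0.47, adjusted p 0.00892) than with TGF-β, the second call being lost without siHoxc8 replicate 1 (adjusted p 0.0901).

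Deptor, which binds and holds back mTOR, was lower with TGF-β than in control. It had 12.7 and 5.61 FPKM with MetR, 5.64 and 4.80 FPKM with siHoxc8, 3.01 and 2.23 FPKM with TGF-β and 62.0 and 65.8 FPKM in control. The TGF-β libraries lay below control by a log2 change of -4.17 (limma adjusted p 0.000127). Heatr3 had 8.01 and 11.8 FPKM with MetR, 16.8 and 16.2 FPKM with siHoxc8, 4.02 and 4.38 FPKM with TGF-β and 4.25 and 4.29 FPKM in control, and was higher with siHoxc8 than with TGF-β (log2 change 1.75, adjusted p 0.000256).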
